A study of Mus musculus with 16 samples.

Results

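The genes described here are 36 genes of cholesterol and fatty acid synthesis, chosen by name as genes of the pathway controlled by the sterol regulatory element-binding proteins (SREBPs) and looked up by Ensembl identifier in a table of read counts for 50600 mouse genes. All 36 passed the filter on low counts, together with 16309 other genes, so that 16345 genes were tested. The 16 libraries came from 4 groups of 4, all of male mice 13 to 14 weeks old. CD11c-eYFP+ cells of the ischemic hemisphere (called brain CD11c cells here) and of the spleen (spleen CD11c cells) were sorted from the Tg(Itgax-Venus)1Mnz line, in which a yellow fluorescent protein is driven by the promoter of Itgax, the gene of CD11c. CX3CR1+ microglia of the ischemic hemisphere (ischemic microglia) and of control brain (control microglia) were sorted from CX3CR1CreERT2:Rosa26-tdT mice, in which Cre follows the Cx3cr1 promoter and switches on a red fluorescent protein. Neither reporter is particular to a single cell type, since other myeloid cells can express Cx3cr1 or Itgax. In every comparison of CD11c cells with microglia, the sorted population and the mouse line cannot be told apart, and for spleen the tissue as well. The labels do not say that each library came from a separate animal, so each p-value reflects only how far these libraries spread, which may be technical.

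Cells make cholesterol from acetyl-CoA through mevalonate, squalene and lanosterol, and make fatty acids from acetyl-CoA through malonyl-CoA and palmitate, which elongases and desaturases then modify. The SREBP precursors, encoded by Srebf1 and Srebf2, are held in the endoplasmic reticulum with the escort protein SCAP by the INSIG proteins while sterols are plentiful. When sterols fall, SCAP carries them to the Golgi, where they are cut and release transcription factors that act on most genes of both routes. In the brain, cholesterol does not cross the blood-brain barrier in bulk, and microglia and infiltrating phagocytes after ischemia take up cholesterol from myelin and dying cells.

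Libraries held 31569304 to 48245164 counts. Values are given as CPM, the usual scale of a gene's counts relative to its library's total, here after TMM scaling, and 1 CPM stands for 31.6 to 48.6 counts. The sorted populations carried markers of their labelled types: summed microglia markers were 12600 to 14100 CPM in brain CD11c cells, 1170 to 1670 CPM in spleen CD11c cells, 31200 to 38800 CPM in ischemic microglia and 41100 to 47300 CPM in control microglia. Summed conventional dendritic cell markers were 10700 to 27400 CPM in brain CD11c cells and 9610 to 15400 CPM in spleen CD11c cells, against 303 to 579 CPM in ischemic microglia and 732 to 1630 CPM in control microglia. Brain CD11c libraries therefore held microglia marker RNA as well. Spleen CD11c libraries held B cell markers at 2750 to 3420 CPM, against at most 21.7 CPM in any library of the other groups. Brain CD11c replicates 1 and 2 differ from replicates 3 and 4 in label style and in marker sums: cycling genes summed to 544 and 537 CPM in replicates 1 and 2 and to 145 and 130 CPM in replicates 3 and 4, while oligodendrocyte genes summed to 237 and 215 CPM and to 425 and 479 CPM in the same pairs. In these bulk samples, fewer cells of a type and less RNA per cell cannot be told apart.

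The 36 genes did not move as a block over the 4 groups. The mean was highest in spleen CD11c cells for 18 genes, in brain CD11c cells for 11, in control microglia for 4 and in ischemic microglia for 3. Per summed exon length (RPKM), ATP citrate lyase (Acly) was among the most abundant in every group. Its means were 43.9 in brain CD11c cells, 33.8 in spleen CD11c cells, 65.9 in ischemic microglia and 51.6 in control microglia. Isopentenyl diphosphate isomerase (Idi1) had a mean RPKM of 0.133 in brain CD11c cells, 0.156 in spleen CD11c cells, 0.0333 in ischemic microglia and 0.0619 in control microglia, from 2 to 33 counts a library. The 18 enzymes of the mevalonate and sterol steps summed to 422, 356, 357 and 430 CPM in brain CD11c cells, 379, 417, 367 and 334 CPM in spleen CD11c cells, 287, 301, 289 and 280 CPM in ischemic microglia, and 265, 274, 276 and 284 CPM in control microglia. Every CD11c library lay above every microglia library in this sum, but for brain CD11c cells this rests on Pmvk (phosphomevalonate kinase). Without Pmvk, a split chosen after its values were seen, the other 17 genes summed to 368, 296, 258 and 334 CPM in brain CD11c cells, which overlaps the 264 to 282 CPM of ischemic microglia and the 254 to 271 CPM of control microglia, while spleen CD11c cells stayed above at 316 to 394 CPM. The mean log2 level over the 18 genes overlapped as well, at 3.27 to 3.81 in brain CD11c cells against 3.06 to 3.32 in ischemic microglia. The heat map of all genes by library shows that single genes depart widely from that sum.

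**Figure D1:**
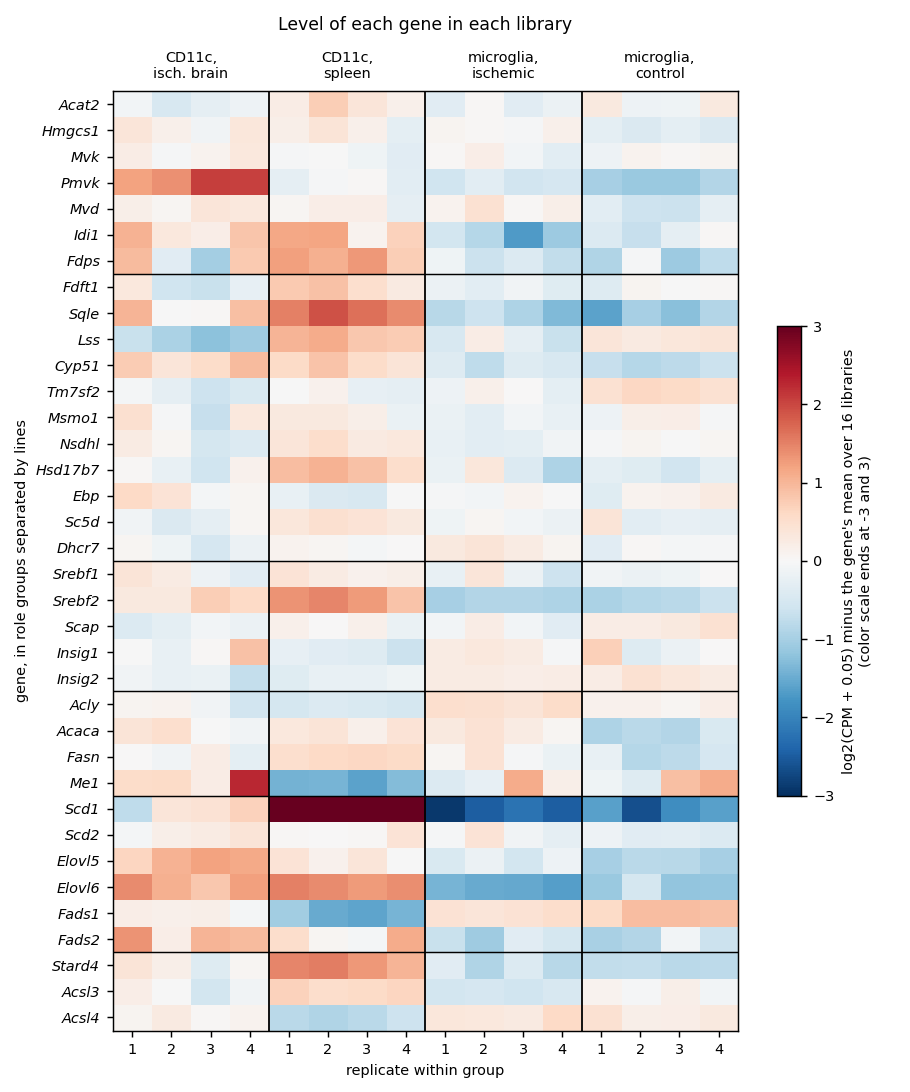
Level of each of the 36 genes (vertical axis, in 6 role groups separated by lines) in each of the 16 libraries (horizontal axis, 4 replicates a group), as log2(CPM + 0.05) minus the gene's mean over all libraries. Scd1 is beyond the upper end of the color scale in all 4 spleen CD11c libraries, and Pmvk is darkest in brain CD11c replicates 3 and 4.

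Brain CD11c cells were first compared with ischemic microglia, to ask which genes differ between these sorted populations of the ischemic hemisphere. In brain CD11c cells 11 of the 36 genes rose and 6 fell (two-sided quasi-likelihood F test in edgeR, with a Benjamini-Hochberg threshold of 0.05 over all genes). The shares were 30.6% higher and 16.7% lower, against 19.7% higher and 19.1% lower over all genes tested. The median log2 fold change of the 36 genes was 0.16, against 0.00 over all genes. The largest changes were rises of Scd1, Elovl6, Pmvk and Idi1, with log2 fold changes of 2.80, 2.74, 2.23 and 1.97. Here and below, whether groups overlap only describes single genes, and the share of all genes tested without overlap was not counted.

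Of the 7 mevalonate-route genes, 2 rose and none fell. Pmvk (phosphomevalonate kinase, chr3:89454541-89469013, GRCm38) had 53.7, 59.9, 98.6 and 96.3 CPM in brain CD11c cells, against 15.4, 18.6, 15.6 and 16.3 CPM in ischemic microglia. All 4 brain CD11c libraries lay above all ischemic microglia, and replicates 3 and 4 stood above replicates 1 and 2. The log2 fold change was 2.23 ± 0.18 (SE, n = 4 each, edgeR adjusted p = 6.31e-08), with 1.79 when only replicates 1 and 2 of the brain CD11c cells were used and 2.58 with only replicates 3 and 4. Idi1, which isomerizes the isoprenoid building block, had 0.638, 0.364, 0.332 and 0.538 CPM in brain CD11c cells, against 0.175, 0.133, 0.0523 and 0.106 CPM in ischemic microglia, and rose by 1.97 ± 0.46 on the log2 scale (adjusted p = 0.0028). Hmgcs1, the first enzyme committed to this route, averaged 52.2 ± 7.57 CPM in brain CD11c cells and 47.3 ± 2.42 CPM in ischemic microglia (SD, n = 4 each, edgeR adjusted p = 0.401). Acat2, Mvk, Mvd and Fdps had log2 fold changes between -0.05 and 0.78 and did not pass the test.

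Among the 11 genes of squalene and sterol steps, 2 rose and 2 fell. Sqle, the squalene epoxidase that is a rate-limiting step of this arm, had 13.1, 6.44, 6.69 and 12.1 CPM in brain CD11c cells, against 3.63, 4.22, 3.4 and 2.54 CPM in ischemic microglia. The groups did not overlap, and the log2 fold change was 1.47 ± 0.25 (edgeR adjusted p = 0.000175). Cyp51, the lanosterol demethylase, had 51.4, 38.9, 44.2 and 58.6 CPM in brain CD11c cells, against 23.2, 17.7, 23 and 21.7 CPM in ischemic microglia. Its groups did not overlap either, and it rose by 1.17 ± 0.13 on the log2 scale (adjusted p = 3.5e-06). Lss (lanosterol synthase), which acts between these 2 enzymes, went the other way, with 7.14, 5.88, 4.81 and 5.41 CPM in brain CD11c cells, against 8.12, 13.3, 9.44 and 7.12 CPM in ischemic microglia. The groups overlapped by the narrowest margin, and the log2 fold change was -0.71 ± 0.18 (adjusted p = 0.00431). Dhcr7, the last reductase of one branch, averaged 25.4 ± 4.07 CPM in brain CD11c cells and 34.2 ± 2.79 CPM in ischemic microglia (SD, n = 4 each), a log2 fold change of -0.43 ± 0.12 (edgeR adjusted p = 0.00812). The other 7 genes of these steps lay between -0.27 and 0.28 and did not pass the test. The pairs of brain CD11c libraries differed here. With replicates 1 and 2 alone, Msmo1, Nsdhl and Ebp were called higher, with log2 fold changes of 0.45, 0.39 and 0.51. With replicates 3 and 4 alone these were 0.10, -0.23 and 0.03 and not called, while Tm7sf2 was called lower (-0.46).

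Of the 5 regulators, 1 rose and 1 fell. Srebf2, the SREBP gene most tied to cholesterol synthesis (chr15:82147181-82205379), had 129, 129, 175 and 159 CPM in brain CD11c cells, against 52.5, 56.8, 57 and 55.3 CPM in ischemic microglia. The lowest brain CD11c library was well above the highest ischemic microglia library, and the log2 fold change was 1.42 ± 0.13 (edgeR adjusted p = 3.38e-07). Insig2, which retains the SREBP-SCAP complex, had 30.8, 28.4, 28.6 and 20 CPM in brain CD11c cells, against 39.3, 39.4, 38.2 and 38.8 CPM in ischemic microglia, and fell by 0.53 ± 0.11 on the log2 scale (adjusted p = 0.00131). Srebf1, the SREBP gene most tied to fatty acid synthesis, had 91.3, 83.1, 63.1 and 55.6 CPM in brain CD11c cells, against 60.2, 91, 62 and 45.6 CPM in ischemic microglia (log2 fold change 0.18 ± 0.18, adjusted p = 0.46). Scap had 58.7, 63.8, 74.1 and 69.7 CPM in brain CD11c cells, against 74, 91.5, 74.3 and 62.1 CPM in ischemic microglia (adjusted p = 0.245). Insig1 had 37.3, 32.5, 38.4 and 69.6 CPM in brain CD11c cells, against 44.5, 47, 45 and 36.7 CPM in ischemic microglia (adjusted p = 0.929), and its brain CD11c replicate 4 stood far above the rest. The groups overlapped for Srebf1, Scap and Insig1.

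Of the 4 genes of fatty acid synthesis, none was called higher and 1 was lower. Acly, which makes cytosolic acetyl-CoA from citrate, had 262, 269, 230 and 167 CPM in brain CD11c cells, against 351, 347, 327 and 366 CPM in ischemic microglia. The groups did not overlap, and the log2 fold change was -0.59 ± 0.12 (edgeR adjusted p = 0.000842). Acaca (acetyl-CoA carboxylase) averaged 11.2 ± 2.28 CPM in brain CD11c cells and 11.5 ± 1.23 CPM in ischemic microglia, and Fasn (fatty acid synthase) 67.5 ± 10.4 CPM and 73.2 ± 14.5 CPM in the same order (SD, n = 4 each, edgeR adjusted p = 0.86 and 0.586). Me1, the malic enzyme that supplies NADPH, had a log2 fold change of 0.91 ± 0.54 (adjusted p = 0.194).

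The genes that modify fatty acids moved most: 4 of 6 rose and 1 fell, with a median log2 fold change of 1.46. Scd1, a stearoyl-CoA desaturase that makes monounsaturated fatty acids (chr19:44394455-44407879), had 9.05, 19.9, 21 and 25 CPM in brain CD11c cells, against 2.03, 2.76, 3.27 and 2.72 CPM in ischemic microglia. All brain CD11c libraries lay above all ischemic microglia, and the log2 fold change was 2.80 ± 0.29 (edgeR adjusted p = 1.61e-06). Its paralog Scd2, which lies on the same chromosome (chr19:44293674-44306864), averaged 192 ± 23.7 CPM in brain CD11c cells and 171 ± 37.1 CPM in ischemic microglia (SD, n = 4 each, edgeR adjusted p = 0.386). Elovl6, which elongates palmitate to stearate, had 6.62, 5.18, 4.31 and 5.85 CPM in brain CD11c cells, against 0.902, 0.823, 0.81 and 0.741 CPM in ischemic microglia, a log2 fold change of 2.74 ± 0.21 (adjusted p = 4.95e-08). Elovl5, which elongates polyunsaturated fatty acids, had 150, 197, 222 and 211 CPM in brain CD11c cells, against 70, 84.9, 65.6 and 86.5 CPM in ischemic microglia, a log2 fold change of 1.34 ± 0.13 (adjusted p = 7.65e-07). Neither elongase had overlapping groups.

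The 2 front-end desaturases that act in turn on polyunsaturated fatty acids went opposite ways. Fads2, which acts first, had 6.26, 2.8, 5.03 and 4.81 CPM in brain CD11c cells, against 1.53, 1.14, 1.93 and 1.69 CPM in ischemic microglia, and rose by 1.58 ± 0.32 on the log2 scale (edgeR adjusted p = 0.000931). Fads1, which acts later, had 91.7, 87.9, 90.7 and 76 CPM in brain CD11c cells, against 108, 103, 107 and 115 CPM in ischemic microglia, and fell by 0.33 ± 0.12 (adjusted p = 0.0349). The groups of both genes stood apart, and the Fads1 call was lost without brain CD11c replicate 2 or 4, any ischemic microglia library or control microglia replicate 2, 3 or 4 (adjusted p up to 0.159 over all alternatives). Of the remaining 3 genes, the sterol transfer protein gene Stard4 had 16.9, 14.7, 9.96 and 13.6 CPM in brain CD11c cells, against 10.2, 6.93, 9.72 and 7.27 CPM in ischemic microglia, with slight overlap and a log2 fold change of 0.69 ± 0.17 (adjusted p = 0.0037). The acyl-CoA ligase genes Acsl3 and Acsl4 had log2 fold changes of 0.45 ± 0.14 and -0.26 ± 0.10 (adjusted p = 0.0171 and 0.0449). Over 24 alternative settings, 13 of the 17 calls held in every one, while those of Dhcr7, Fads1, Acsl3 and Acsl4 were lost in at least 1. Fdps, Tm7sf2, Msmo1, Nsdhl and Ebp, not called in the main fit, were called in at least 1. The Acsl3 call was lost without brain CD11c replicate 1 (adjusted p up to 0.189 over all alternatives), and the Acsl4 call without any library other than brain CD11c replicate 2 and spleen CD11c replicate 4 (up to 0.217). The Dhcr7 call was lost with brain CD11c replicates 1 and 2 alone. With brain CD11c replicates 1 and 2 alone, 3 genes were called lower instead of 6. The summed microglia markers given above were lower in brain CD11c cells. The 10 oligodendrocyte markers summed to 215 to 479 CPM in brain CD11c cells and 203 to 222 CPM in ischemic microglia. They also summed to 271 to 319 CPM in spleen CD11c cells, although 3 to 5 of them had no count there. The sum therefore does not measure oligodendrocyte RNA alone. Their mean log2 level was 1.21 to 4.42 in brain CD11c cells and 1.70 to 2.29 in ischemic microglia. The part of microglia and oligodendrocyte RNA in these results was not tested.

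**Figure D2:**
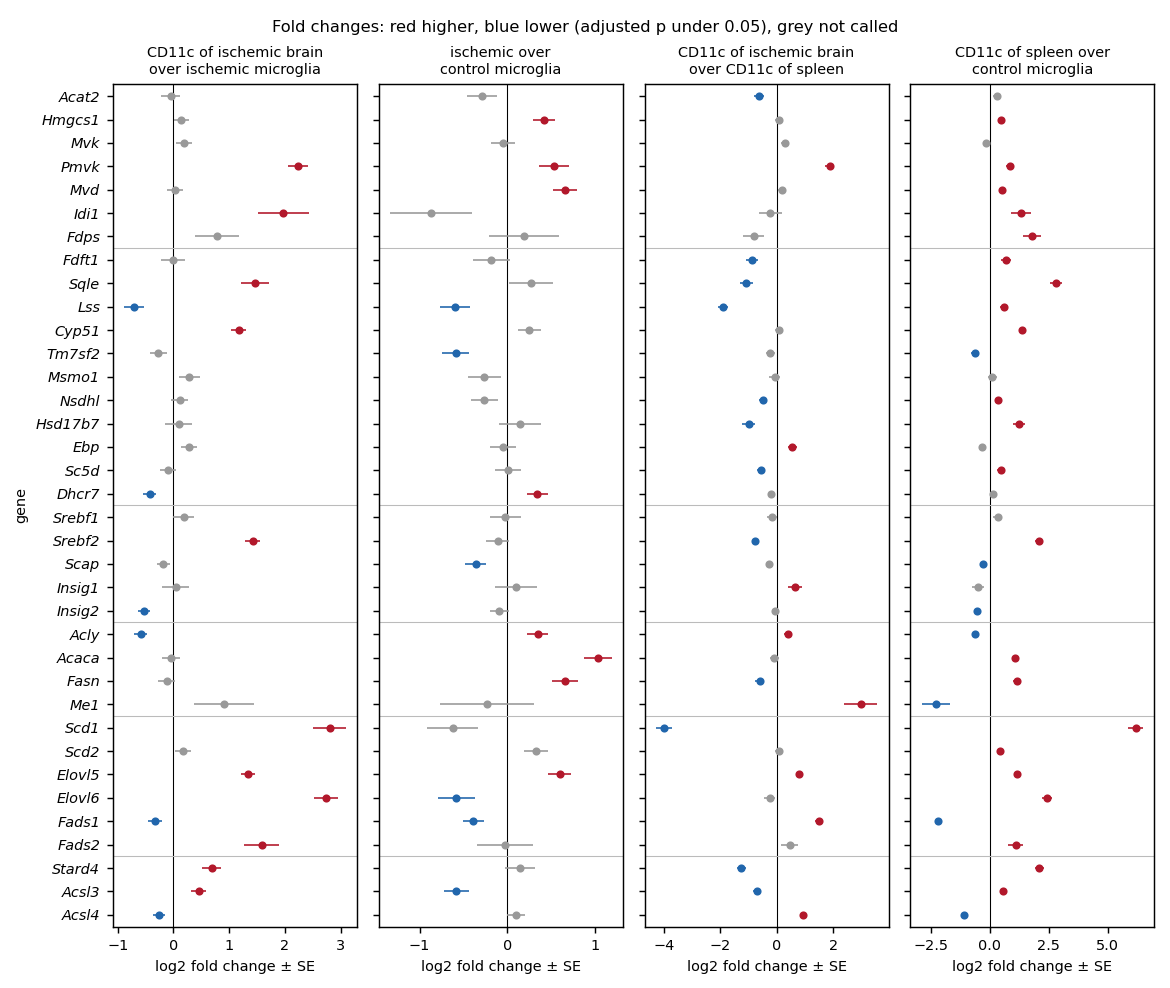
Log2 fold change of each gene (vertical axis, same order as in the heat map) in the 4 comparisons, with bars of 1 SE from the edgeR fit on 4 libraries a group. The horizontal scale differs between panels: Scd1 reaches 6.19 in spleen CD11c cells over control microglia, whereas the changes in ischemic over control microglia stay between -0.87 and 1.03.

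Other genes of the pathway were read from lists of the same kind. Of 16 further sterol genes, 6 were higher and 4 lower in brain CD11c cells than in ischemic microglia, and of 19 further fatty acid genes 3 were higher and 6 lower, against 19.7% higher and 19.1% lower over all genes tested.

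Ischemic microglia were then compared with control microglia, which asks what differs in the same sorted population after ischemia. The shares of the 36 genes called were 22.2% higher (8 genes) and 16.7% lower (6 genes), against 17.7% higher and 18.0% lower over all genes tested, so the set as a whole was called about as often as any genes. The median log2 fold change was -0.02 for the 36 genes and -0.05 for all genes. By role, 3 of 4 fatty acid synthesis genes and 3 of 7 mevalonate-route genes were called higher and none of either lower, and the other role groups held at most 1 gene called higher and 2 called lower.

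Of the 4 genes of fatty acid synthesis, 3 were called higher. Acaca had 11.8, 13, 11.3 and 10 CPM in ischemic microglia, against 5, 5.45, 5.22 and 6.93 CPM in control microglia. The groups were well apart, and the log2 fold change was 1.03 ± 0.16 (edgeR adjusted p = 0.000145), the largest among the 36 genes here. Fasn had 71.4, 93.8, 67.7 and 60.1 CPM in ischemic microglia, against 58.8, 37.8, 39.7 and 48.9 CPM in control microglia. Its groups came close without overlapping, and it rose by 0.66 ± 0.15 on the log2 scale (adjusted p = 0.00324). Acly averaged 348 ± 16 CPM in ischemic microglia and 272 ± 9.84 CPM in control microglia (SD, n = 4 each), with a log2 fold change of 0.35 ± 0.12 (edgeR adjusted p = 0.027). The groups for Acly did not overlap, but this call was lost without any one of the 8 microglia libraries other than ischemic replicate 3 (adjusted p up to 0.161 over all alternatives). Me1 was not called (log2 fold change -0.23, adjusted p = 0.775).

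Of the 7 mevalonate-route genes, 3 were called higher and none lower. Mvd, the decarboxylase that makes isopentenyl diphosphate, averaged 17 ± 2.22 CPM in ischemic microglia and 10.8 ± 1.5 CPM in control microglia (log2 fold change 0.66 ± 0.14, SE, n = 4 each, edgeR adjusted p = 0.00164). Pmvk had 15.4, 18.6, 15.6 and 16.3 CPM in ischemic microglia, against 11.7, 10.8, 10.7 and 12.6 CPM in control microglia (0.53 ± 0.17, adjusted p = 0.025). Hmgcs1 had 47.9, 46.5, 44.4 and 50.2 CPM in ischemic microglia, against 37, 33.6, 37.2 and 33.6 CPM in control microglia (0.42 ± 0.13, adjusted p = 0.0176). None of these 3 genes had overlapping groups, but how often this held over all genes tested was not counted.

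Sterol steps were mixed, with 1 of 11 genes called higher and 2 lower. Dhcr7 rose by 0.34 ± 0.12 on the log2 scale (34.2 ± 2.79 CPM in ischemic microglia and 27 ± 3.02 CPM in control microglia, SD, n = 4 each, edgeR adjusted p = 0.0314). Lss had 8.12, 13.3, 9.44 and 7.12 CPM in ischemic microglia, against 14.7, 13.6, 14.4 and 14.8 CPM in control microglia, and fell by 0.60 ± 0.17 (adjusted p = 0.0134). Control libraries lay within a narrow band for Lss, while ischemic replicate 2 came close to it. Tm7sf2, a sterol reductase, averaged 7.28 ± 1.02 CPM in ischemic microglia and 11 ± 0.633 CPM in control microglia, and fell by 0.59 ± 0.15 (adjusted p = 0.00698). Sqle had 3.63, 4.22, 3.4 and 2.54 CPM in ischemic microglia, against 2.1, 3.2, 2.69 and 3.49 CPM in control microglia (log2 fold change 0.27 ± 0.25, adjusted p = 0.431). Cyp51 had 23.2, 17.7, 23 and 21.7 CPM in ischemic microglia, against 18.7, 16.8, 17.4 and 19.3 CPM in control microglia (0.25 ± 0.13, adjusted p = 0.167). Both overlapped between the groups.

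Neither SREBP gene was called. Srebf2 had 52.5, 56.8, 57 and 55.3 CPM in ischemic microglia, against 54.5, 57.9, 59.5 and 67.1 CPM in control microglia (log2 fold change -0.11 ± 0.13, SE, n = 4 each, edgeR adjusted p = 0.543). Srebf1 had 60.2, 91, 62 and 45.6 CPM in ischemic microglia, against 64.9, 62, 63.9 and 71.5 CPM in control microglia (-0.02 ± 0.18, adjusted p = 0.955). Ischemic replicates spanned the wider range for Srebf1 and the narrower for Srebf2. Scap had 74, 91.5, 74.3 and 62.1 CPM in ischemic microglia, against 91.4, 92.4, 95.8 and 108 CPM in control microglia, and fell by 0.36 ± 0.12 (adjusted p = 0.0255), although ischemic replicate 2 lay just inside the control range. Insig1 had 44.5, 47, 45 and 36.7 CPM in ischemic microglia, against 61.7, 28.9, 33.2 and 38 CPM in control microglia (adjusted p = 0.783). Insig2 had 39.3, 39.4, 38.2 and 38.8 CPM in ischemic microglia, against 38.6, 45.5, 42.2 and 39 CPM in control microglia (adjusted p = 0.582). All 5 regulators overlapped between the groups.

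Of the genes that modify fatty acids, 1 was called higher and 2 lower. Elovl5 had 70, 84.9, 65.6 and 86.5 CPM in ischemic microglia, against 47.9, 54, 53.2 and 48 CPM in control microglia, and rose by 0.60 ± 0.13 on the log2 scale (edgeR adjusted p = 0.00242). Fads1 had 108, 103, 107 and 115 CPM in ischemic microglia, against 119, 152, 152 and 147 CPM in control microglia, and fell by 0.39 ± 0.12 (adjusted p = 0.0148). Elovl6 had 0.902, 0.823, 0.81 and 0.741 CPM in ischemic microglia, against 1.1, 1.69, 1.05 and 1.07 CPM in control microglia, a log2 fold change of -0.58 ± 0.21 (edgeR adjusted p = 0.041). None of the 3 had overlapping groups. Scd1 had 2.03, 2.76, 3.27 and 2.72 CPM in ischemic microglia, against 4.97, 2.46, 4.23 and 4.94 CPM in control microglia, and was not called (-0.62 ± 0.29, adjusted p = 0.106). Acsl3, an acyl-CoA ligase of lipid droplets, averaged 6.81 ± 0.222 CPM in ischemic microglia and 10.2 ± 0.839 CPM in control microglia and fell by 0.58 ± 0.14 (adjusted p = 0.00392).

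**Figure D3:**
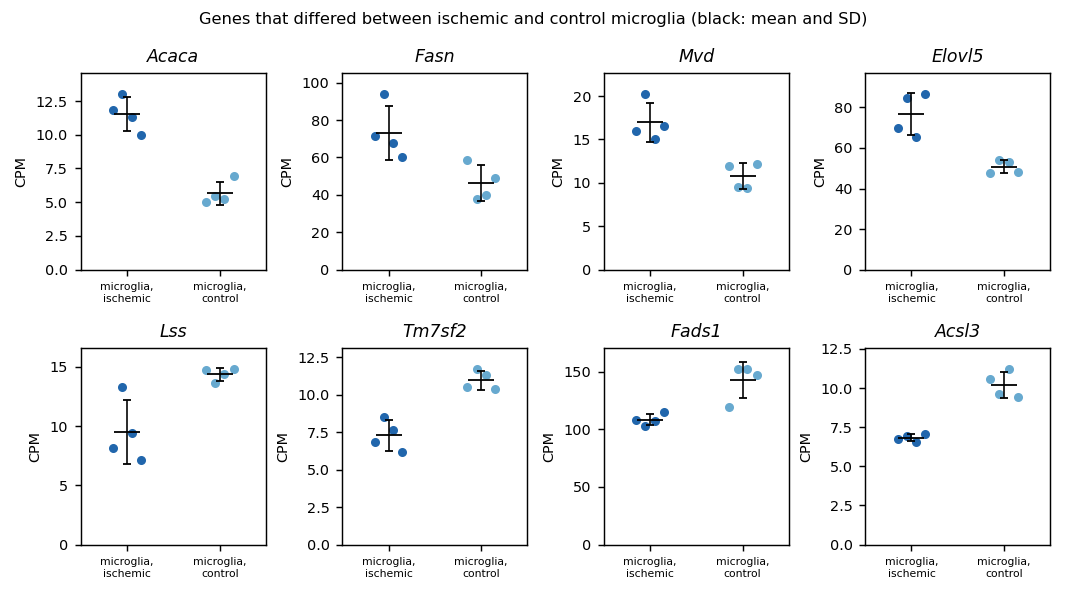
CPM of 8 genes in each library of ischemic microglia (left) and control microglia (right), on linear axes from 0, with the mean and SD of 4 libraries in black. These are the 8 genes whose call held in all 22 alternative settings: Acaca, Fasn, Mvd and Elovl5 lie higher and Lss, Tm7sf2, Fads1 and Acsl3 lower in ischemic microglia, with no overlap.

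Over 22 alternatives, the calls of Mvd, Lss, Tm7sf2, Acaca, Fasn, Elovl5, Fads1 and Acsl3 held in every one, and those of Hmgcs1, Pmvk, Dhcr7, Scap, Acly and Elovl6 were lost in at least 1. Cyp51, Nsdhl, Scd1 and Scd2, not called in the main fit, were called in at least 1. Hmgcs1 was lost without ischemic replicate 4 or control replicate 2 or 4 (adjusted p up to 0.148 over all alternatives), Pmvk without ischemic replicate 2 or 4 or control replicate 2 or 3 (up to 0.137), and Scap without replicate 4 of either group (up to 0.0763). Dhcr7 was lost without ischemic replicate 1, 2 or 3 or control replicate 1, 3 or 4 (up to 0.199), and Elovl6 without any ischemic microglia or spleen CD11c library or control replicate 2 (up to 0.161). The count of genes called higher was 5 instead of 8 without ischemic microglia replicate 2 or 4 or control microglia replicate 2, 3 or 4, and 4 when libraries were scaled by their totals, where 8 were called lower. Cycling genes summed to 368 to 480 CPM in ischemic microglia and 47.4 to 180 CPM in control microglia, with all 10 called higher, and their part in the results on Acaca, Fasn and Acly was not tested. Of the 16 further sterol genes, 2 were higher and 4 lower in ischemic than in control microglia. Of the 19 further fatty acid genes, 3 were higher and 5 lower, against 17.7% higher and 18.0% lower over all genes tested.

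Brain CD11c cells were also set against CD11c cells of the spleen, the same reporter population from a tissue outside the brain. In brain CD11c cells 22.2% of the 36 genes were higher (8 genes) and 33.3% lower (12 genes), against 31.2% higher and 33.0% lower over all genes tested, which leaves the share called lower next to that of all genes. Cells of the 2 sites differed most in Scd1, Me1, Lss and Pmvk. The median log2 fold change of the 36 genes was -0.20, against -0.04 over all genes.

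Of the 11 genes of squalene and sterol steps, 6 were called lower and 1 higher in the brain cells. Lss had 7.14, 5.88, 4.81 and 5.41 CPM in brain CD11c cells, against 22.9, 24.6, 19.9 and 19.2 CPM in spleen CD11c cells. The groups were far apart, and the log2 fold change was -1.90 ± 0.18 (edgeR adjusted p = 1.23e-07). Sqle had 13.1, 6.44, 6.69 and 12.1 CPM in brain CD11c cells, against 18.5, 24.6, 20.5 and 17.4 CPM in spleen CD11c cells (-1.08 ± 0.24, adjusted p = 0.000913). Hsd17b7, a ketosteroid reductase of the route, had 4.89, 4.12, 3.18 and 5.28 CPM in brain CD11c cells, against 9.13, 10, 8.86 and 6.94 CPM in spleen CD11c cells (-1.0 ± 0.24, adjusted p = 0.0015). Neither gene's groups overlapped. The squalene synthase gene Fdft1, Sc5d and Nsdhl had log2 fold changes of -0.88, -0.56 and -0.50, and the sterol isomerase gene Ebp had 0.55. The Ebp call was lost with brain CD11c replicates 3 and 4 alone (adjusted p up to 0.172 over all alternatives), and the Nsdhl call with replicates 1 and 2 alone. Cyp51 had 51.4, 38.9, 44.2 and 58.6 CPM in brain CD11c cells, against 45.3, 55.2, 44.2 and 39.4 CPM in spleen CD11c cells, and was not called (0.07 ± 0.13, adjusted p = 0.668).

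Of the mevalonate-route genes, Pmvk rose and Acat2 fell. Pmvk had 53.7, 59.9, 98.6 and 96.3 CPM in brain CD11c cells, against 19.2, 22.6, 23.8 and 18.7 CPM in spleen CD11c cells, a log2 fold change of 1.87 ± 0.17 (edgeR adjusted p = 1.03e-07). Every brain CD11c library was above every library of each other group for Pmvk. Acat2, an acetoacetyl-CoA thiolase, averaged 6.5 ± 0.78 CPM in brain CD11c cells and 10.1 ± 1.89 CPM in spleen CD11c cells (-0.63 ± 0.17, adjusted p = 0.00374). Idi1 had 0.638, 0.364, 0.332 and 0.538 CPM in brain CD11c cells, against 0.696, 0.701, 0.309 and 0.486 CPM in spleen CD11c cells, with overlap (adjusted p = 0.64).

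Srebf2 had 129, 129, 175 and 159 CPM in brain CD11c cells, against 267, 291, 255 and 189 CPM in spleen CD11c cells. The groups did not overlap, and the log2 fold change was -0.76 ± 0.13 (edgeR adjusted p = 7.98e-05). Insig1 had 37.3, 32.5, 38.4 and 69.6 CPM in brain CD11c cells, against 32, 29.9, 28.6 and 23.9 CPM in spleen CD11c cells, and was called higher (0.64 ± 0.24, adjusted p = 0.0279). Without brain CD11c replicate 4 the log2 fold change was 0.34 with an adjusted p of 0.149, and the call was also lost without spleen CD11c replicate 3 or 4. Srebf1 had 91.3, 83.1, 63.1 and 55.6 CPM in brain CD11c cells, against 93.3, 82.9, 77.3 and 79.6 CPM in spleen CD11c cells (adjusted p = 0.374). Scap had 58.7, 63.8, 74.1 and 69.7 CPM in brain CD11c cells, against 86.7, 78.9, 87 and 68 CPM in spleen CD11c cells (adjusted p = 0.0568). Insig2 had 30.8, 28.4, 28.6 and 20 CPM in brain CD11c cells, against 25.8, 28.2, 28.3 and 30.3 CPM in spleen CD11c cells (adjusted p = 0.635). Srebf1, Scap and Insig2 overlapped between the groups.

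Genes of fatty acid synthesis and modification diverged. Scd1 had 9.05, 19.9, 21 and 25 CPM in brain CD11c cells, against 251, 272, 302 and 386 CPM in spleen CD11c cells, a log2 fold change of -4.01 ± 0.29 (edgeR adjusted p = 7.79e-09). All brain libraries were far below all spleen libraries. Fads1 had 91.7, 87.9, 90.7 and 76 CPM in brain CD11c cells, against 38.7, 27.9, 26.4 and 30.3 CPM in spleen CD11c cells (1.49 ± 0.12, adjusted p = 1.69e-08). Elovl5 had 150, 197, 222 and 211 CPM in brain CD11c cells, against 126, 104, 123 and 94.4 CPM in spleen CD11c cells (0.80 ± 0.13, adjusted p = 5.98e-05). Fads1 and Elovl5 were apart in the 2 groups, and both were higher in the brain. Elovl6 had 6.62, 5.18, 4.31 and 5.85 CPM in brain CD11c cells, against 7.04, 6.65, 6.02 and 6.5 CPM in spleen CD11c cells (adjusted p = 0.256). Fads2 had 6.26, 2.8, 5.03 and 4.81 CPM in brain CD11c cells, against 3.56, 2.57, 2.33 and 5.37 CPM in spleen CD11c cells (adjusted p = 0.213). Elovl6 and Fads2 overlapped.

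Me1 had 0.638, 0.644, 0.498 and 2.18 CPM in brain CD11c cells, against 0.124, 0.127, 0.103 and 0.139 CPM in spleen CD11c cells, and was higher by 2.97 ± 0.60 on the log2 scale (edgeR adjusted p = 0.000391). Without brain CD11c replicate 4, which was the highest by far, the log2 fold change was 2.24 with an adjusted p of 0.00129. Fasn averaged 67.5 ± 10.4 CPM in brain CD11c cells and 103 ± 3.99 CPM in spleen CD11c cells (-0.61 ± 0.15, SE, n = 4 each, edgeR adjusted p = 0.00248). Acaca had 12.6, 13.6, 9.49 and 8.95 CPM in brain CD11c cells, against 12, 12.6, 10.6 and 12.7 CPM in spleen CD11c cells, with overlap (adjusted p = 0.58). Acly had a log2 fold change of 0.38 ± 0.12 (adjusted p = 0.00973), and this call was lost without brain CD11c replicate 1 or 2 (adjusted p up to 0.437 over all alternatives). Stard4, a carrier of cholesterol between membranes, had 16.9, 14.7, 9.96 and 13.6 CPM in brain CD11c cells, against 36, 37.8, 32.1 and 26.4 CPM in spleen CD11c cells (-1.26 ± 0.17, adjusted p = 6.56e-06). The ligases Acsl3 and Acsl4 went opposite ways, with log2 fold changes of -0.71 ± 0.14 and 0.92 ± 0.10 (adjusted p = 0.000295 and 4.93e-07).

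**Figure D4:**
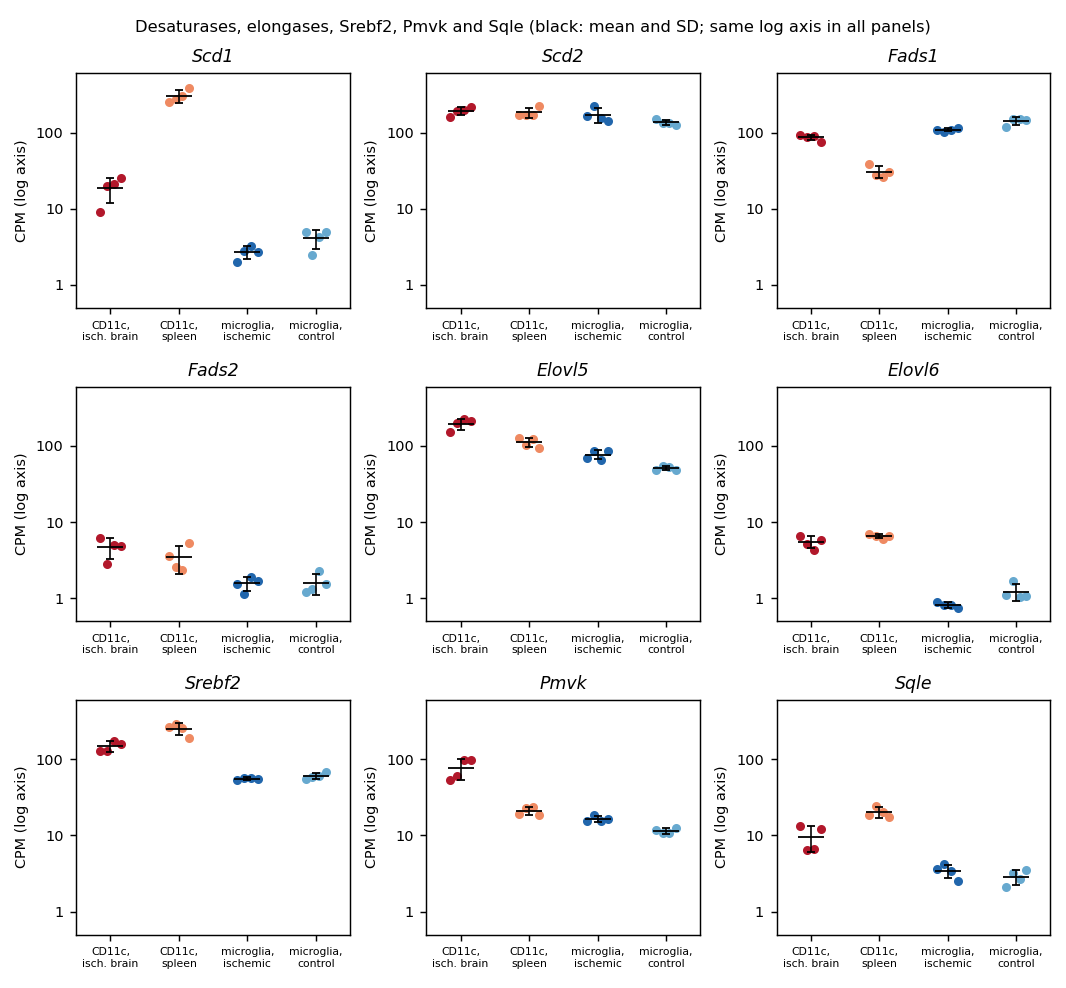
CPM of 9 genes in each library (log axis, the same in all panels) of brain CD11c cells, spleen CD11c cells, ischemic microglia and control microglia, with the mean and SD of 4 libraries in black. Scd1 ranges from 2.03 to 386 CPM, with overlap between ischemic and control microglia, while Scd2 stays between 126 and 225 CPM. Fads1 is lowest where Scd1 is highest.

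Of 24 alternatives for this comparison, 16 of the 20 calls held in every one, and those of Nsdhl, Ebp, Insig1 and Acly were lost in at least 1. Mvk, Fdps, Tm7sf2, Dhcr7, Srebf1, Scap, Insig2, Acaca, Elovl6 and Fads2, not called in the main fit, were called in at least 1. With libraries scaled by their totals, 5 genes were called higher and 20 lower. All 7 B cell, all 7 T cell and 6 of 7 neutrophil markers were called lower in brain than in spleen CD11c cells, with sums of 10.8 to 17.4, 2.35 to 12.1 and 7.02 to 26.9 CPM in brain and of 2750 to 3420, 167 to 274 and 202 to 884 CPM in spleen. All 10 microglia markers were called higher in brain CD11c cells, and the part of these other cells in the results on Scd1, Lss, Srebf2 and the rest was not tested. Of the 16 further sterol genes, 6 were higher and 4 lower in brain than in spleen CD11c cells, and of the 19 further fatty acid genes 9 were higher and 5 lower, against 31.2% higher and 33.0% lower over all genes tested.

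Spleen CD11c cells and control microglia, populations of unlike tissue and lineage that were not taken from ischemic brain, gave the widest differences. The labels do not say whether the spleen donors were ischemic mice. Libraries of ischemic brain still entered the shared model, and so the estimate of spread behind these p-values. In spleen CD11c cells 61.1% of the 36 genes were higher (22 genes) and 19.4% lower (7 genes), against 37.1% higher and 31.7% lower over all genes tested. The median log2 fold change was 0.50, against 0.11 over all genes. The further lists did not share this lean. Of the 16 further sterol genes, 6 were higher and 6 lower in spleen CD11c cells, with a median log2 fold change of 0.06. Of the 19 further fatty acid genes, 4 were higher and 12 lower, with a median of -0.43. Scd1 had 251, 272, 302 and 386 CPM in spleen CD11c cells, against 4.97, 2.46, 4.23 and 4.94 CPM in control microglia (6.19 ± 0.32, SE, n = 4 each, edgeR adjusted p = 9.21e-11). Sqle, Elovl6, Stard4 and Srebf2 followed with log2 fold changes of 2.82, 2.42, 2.11 and 2.07, all with groups apart. Srebf2 had 267, 291, 255 and 189 CPM in spleen CD11c cells, against 54.5, 57.9, 59.5 and 67.1 CPM in control microglia.

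The mevalonate-route genes called higher in spleen CD11c cells were Fdps, Idi1, Pmvk, Mvd and Hmgcs1, with log2 fold changes of 1.79, 1.33, 0.88, 0.52 and 0.49. Among sterol steps these were Cyp51, Hsd17b7, Fdft1, Lss, Sc5d and Nsdhl (1.35, 1.24, 0.69, 0.59, 0.47 and 0.35), and in fatty acid synthesis Fasn and Acaca (1.15 and 1.09). Elovl5, Fads2, Scd2 and Acsl3 had log2 fold changes of 1.14, 1.11, 0.44 and 0.57.

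All 7 genes lower in spleen CD11c cells than in control microglia lay outside the mevalonate steps. Fads1 had 38.7, 27.9, 26.4 and 30.3 CPM in spleen CD11c cells, against 119, 152, 152 and 147 CPM in control microglia (-2.21 ± 0.12, edgeR adjusted p = 9.21e-11). Me1, Acsl4, Tm7sf2, Acly, Insig2 and Scap had log2 fold changes of -2.29, -1.08, -0.63, -0.61, -0.55 and -0.27. Acsl4, a ligase that prefers arachidonic acid and is linked to ferroptosis, averaged 51.1 ± 4.26 CPM in spleen CD11c cells and 108 ± 9.89 CPM in control microglia. Srebf1 had 93.3, 82.9, 77.3 and 79.6 CPM in spleen CD11c cells, against 64.9, 62, 63.9 and 71.5 CPM in control microglia (0.34 ± 0.18, adjusted p = 0.095), and was not called although its groups were apart. Insig1 had 32, 29.9, 28.6 and 23.9 CPM in spleen CD11c cells, against 61.7, 28.9, 33.2 and 38 CPM in control microglia, and was not called either (-0.50 ± 0.24, adjusted p = 0.0729). Insig2 had 25.8, 28.2, 28.3 and 30.3 CPM in spleen CD11c cells, against 38.6, 45.5, 42.2 and 39 CPM in control microglia. Scap had 86.7, 78.9, 87 and 68 CPM in spleen CD11c cells, against 91.4, 92.4, 95.8 and 108 CPM in control microglia. The groups were apart for Insig2 and Scap and overlapped for Insig1. Of 29 calls, 25 held in all 22 alternatives, and those of Idi1, Nsdhl, Scap and Scd2 were lost in at least 1. Acat2, Ebp, Dhcr7, Srebf1 and Insig1, not called in the main fit, were called in at least 1. Idi1 was lost without the filter on low counts (adjusted p = 0.0514) and Scd2 without spleen replicate 4 (adjusted p = 0.0507). Nsdhl was lost without spleen replicate 1, 2 or 4 or control replicate 1 or 3 (up to 0.149), and Scap without most single libraries (up to 0.843 over all alternatives). B cell markers summed to 2750 to 3420 CPM in spleen CD11c cells and 15.7 to 21.7 CPM in control microglia, and cycling genes to 475 to 881 CPM and 47.4 to 180 CPM in the same order, and their part was not tested.

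Pairs of related genes, of which Scd1 and Scd2 encode enzymes of the same step, held unequal shares in the groups. Per summed exon length, Scd1 took 5.89% to 11.3% of the summed Scd1 and Scd2 signal in brain CD11c cells. Its share was 62.2% to 66.3% in spleen CD11c cells, 1.35% to 2.3% in ischemic microglia and 2.03% to 4.18% in control microglia. Srebf1 took 30.9% to 47.5% of the summed Srebf1 and Srebf2 signal in brain CD11c cells and 26.6% to 34.9% in spleen CD11c cells, against 51.3% to 67.1% in ischemic microglia and 57.6% to 60.3% in control microglia. In each microglia library, the Srebf1 share was thus above that of any CD11c library. Insig1 took 56.2% to 79.7% of the Insig1 and Insig2 signal in brain CD11c cells, 47% to 58.2% in spleen CD11c cells, 51.5% to 57.3% in ischemic microglia and 41.6% to 64.2% in control microglia, and these ranges overlapped. Fads1 and Fads2, whose genes lie on the same chromosome (chr19:10182888-10196877 and chr19:10062765-10101746) on opposite strands, were unequal in all groups, with Fads1 at 79.4% to 98.8% of their summed signal over the 16 libraries.

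Promoter sequences were searched for elements of the SREBP system. Windows of 300 bases, from 250 before to 50 after the start site in a RefSeq table on GRCm38.p6, were found for 29 of the 36 genes and searched on both strands for a sterol regulatory element (TCACNCCAC), the box of nuclear factor Y (CCAAT), a usual partner of SREBPs, and the E-box CACGTG. An exact match to the sterol element was in 1 of the 29 genes, Hmgcs1, or 3.45%, against 1.44% of 27025 genes in the table. Variants of these letters and positions outside the windows were not searched, so a gene without a match may still hold an element. The CCAAT box was in 23 of the 29 genes, or 79.3%, against 41.1% of all genes, and the E-box in 6, or 20.7%, against 8.09%. Windows of genes that were called in brain CD11c cells or ischemic microglia are shown to place these letters, in capitals, on the gene's own strand: Hmgcs1 (chr13:119690101-119690400, plus strand), Pmvk (chr3:89454291-89454590, plus), Srebf2 (chr15:82147019-82147318, plus), Elovl5 (chr9:77917115-77917414, plus) and Fasn (chr11:120824498-120824797, minus).
Hmgcs1: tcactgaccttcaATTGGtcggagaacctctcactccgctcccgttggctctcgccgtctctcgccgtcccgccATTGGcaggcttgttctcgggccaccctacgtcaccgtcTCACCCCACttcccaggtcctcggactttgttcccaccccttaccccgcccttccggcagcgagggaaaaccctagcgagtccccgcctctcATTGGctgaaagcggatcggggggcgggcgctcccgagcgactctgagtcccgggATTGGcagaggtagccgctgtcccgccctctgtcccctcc
Pmvk: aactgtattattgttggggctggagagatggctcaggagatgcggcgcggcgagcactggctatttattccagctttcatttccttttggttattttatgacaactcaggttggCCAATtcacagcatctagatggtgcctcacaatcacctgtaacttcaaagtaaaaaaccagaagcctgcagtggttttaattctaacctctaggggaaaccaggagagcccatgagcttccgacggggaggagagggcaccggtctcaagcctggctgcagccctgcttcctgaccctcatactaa
Srebf2: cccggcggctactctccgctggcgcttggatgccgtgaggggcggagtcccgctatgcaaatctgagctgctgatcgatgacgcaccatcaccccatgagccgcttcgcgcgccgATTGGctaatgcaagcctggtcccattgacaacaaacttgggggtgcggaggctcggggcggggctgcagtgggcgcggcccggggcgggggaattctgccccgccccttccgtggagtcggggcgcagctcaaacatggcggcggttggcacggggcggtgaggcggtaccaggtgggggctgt
Elovl5: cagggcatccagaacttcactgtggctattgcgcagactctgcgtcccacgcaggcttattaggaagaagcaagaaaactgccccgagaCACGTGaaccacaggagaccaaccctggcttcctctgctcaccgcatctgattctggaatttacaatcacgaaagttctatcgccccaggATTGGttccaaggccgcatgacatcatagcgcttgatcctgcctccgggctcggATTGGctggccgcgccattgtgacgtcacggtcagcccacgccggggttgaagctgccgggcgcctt
Fasn: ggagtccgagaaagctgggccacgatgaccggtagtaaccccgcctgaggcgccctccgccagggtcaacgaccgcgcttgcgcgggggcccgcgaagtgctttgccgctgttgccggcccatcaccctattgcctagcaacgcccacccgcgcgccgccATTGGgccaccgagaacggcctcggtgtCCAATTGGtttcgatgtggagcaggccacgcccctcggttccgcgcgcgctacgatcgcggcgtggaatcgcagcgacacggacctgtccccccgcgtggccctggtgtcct
In Hmgcs1 the sterol element begins 137 bases before the start site, among 4 CCAAT boxes in reverse orientation (ATTGG). Pmvk holds a single CCAAT box, 136 bases before its start site, and Srebf2 a single reverse box 135 bases before. Elovl5 has reverse boxes 71 and 17 bases before its start site and an E-box 161 bases before. Fasn has 3 boxes, of which the forward one and a reverse one overlap by 2 bases. The matches describe these letters only.

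For several of the 36 genes the counts are uncertain. In Acat2, Acaca, Fdps, Me1 and Idi1, 39.1%, 30.4%, 26.2%, 22.9% and 17.7% of the 50-base words of the transcripts also occur in other genes, and how the authors' counting treated such reads is not given in the sources used here. Fdft1 has 774 exon bases opposite Ctsb, a protease gene at a mean of 10500 CPM in brain CD11c cells, 2360 CPM in spleen CD11c cells, 13200 CPM in ischemic microglia and 4040 CPM in control microglia. Fdft1 averaged 6.49 CPM in brain CD11c cells, 11.9 CPM in spleen CD11c cells, 6.52 CPM in ischemic microglia and 7.38 CPM in control microglia. The part of the Ctsb overlap in these values was not tested. In the annotation, Tm7sf2 shares 532 exon bases with Vps51 on its own strand, and Vps51 had means of 45.8 CPM in ischemic microglia and 60.4 CPM in control microglia. Hmgcs1, Idi1, Lss, Cyp51, Srebf1, Scap and Acsl3 also overlap another gene over part of their exons.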

How the data were processed

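The authors deposited whole-number counts of reads per gene for 16 libraries of stranded poly(A) RNA. Per the submitters' processing notes, reads were checked with FastQC 0.11.5 and aligned with STAR 2.5.3a to GRCm38. The counting program, its strand setting, the annotation release and the interval after ischemia were not given in the sources used here. The 36 genes and the other lists were chosen with earlier results of these data known. Genes were placed on GRCm38 with GENCODE M21.

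Counts were tested with edgeR 4.0.16 under R 4.3.3 (filterByExpr, TMM, robust quasi-likelihood F test, 1 model of 4 group means over 16 libraries). P-values were adjusted by Benjamini-Hochberg over 16345 genes, with a threshold of 0.05. RPKM and the shares of gene pairs used the summed length of all annotated exons of a gene, with overlapping exons merged. This length can exceed that of the transcript expressed. In every comparison, genes past the threshold were named by role. Per-library values are given for the 5 regulators and, in the comparison concerned, for called genes that changed by 1 or more on the log2 scale in one of the first 3. Comparisons share libraries. Alternatives were DESeq2 1.42.0, limma 3.58.1 (voom), other scalings, no filter, 2 groups alone, each library left out, and pairs of brain CD11c libraries. The test was checked on simulated counts. Some genes of the further sterol list are counted but not reported singly here.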

Additional observations from a re-analysis of the deposited data

Results flagged for a closer look

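In 142 sets of 4 values (a gene in a group), 6 had a library far from the other 3 by Dixon's criterion, which chance alone gives in about 1 of 20 sets. Sc5d was 33.7 CPM in control microglia replicate 1, against 20.7 to 21.8 CPM in the other 3. Without that library, Sc5d had a log2 fold change of 0.70 in spleen CD11c cells over control microglia (edgeR adjusted p = 6.12e-05) and of 0.20 in ischemic over control microglia (adjusted p = 0.199).

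Insig1 was 69.6 CPM in brain CD11c replicate 4, against 32.5 to 38.4 CPM in the other 3, and its call against spleen was lost without it. Me1 was 2.18 CPM in the same library, against 0.498 to 0.644 CPM. Scd2 was 225 CPM in spleen CD11c replicate 4, against 170 to 171 CPM, and without that library its log2 fold change over control microglia was 0.33 (edgeR adjusted p = 0.0507). Elovl6 was 1.69 CPM in control microglia replicate 2, against 1.05 to 1.1 CPM, and without it the log2 fold change of Elovl6 in ischemic over control microglia was -0.40 (adjusted p = 0.156). Fads1 was 119 CPM in control microglia replicate 1, against 147 to 152 CPM, and without it Fads1 in ischemic over control microglia was -0.48 (adjusted p = 0.00462).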

How the results depend on the processing

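Under the alternatives tried, no called gene changed direction. Scaling by library totals in place of TMM moved the median log2 fold change of all genes from 0.00 to 0.10 in brain CD11c cells over ischemic microglia, from -0.05 to -0.20 in ischemic over control microglia, from -0.04 to -0.30 in brain over spleen CD11c cells, and from 0.11 to 0.34 in spleen CD11c cells over control microglia. The share of all called genes that were higher was then 62.4%, 33.5%, 34.9% and 63.9% in these comparisons, against 50.7%, 49.5%, 48.6% and 53.9% with TMM. Of the 36 genes, 4 were then higher in ischemic over control microglia, and 5 higher and 20 lower in brain over spleen CD11c cells. With brain CD11c replicates 1 and 2 alone, 3 were lower than in ischemic microglia. Without 1 library at a time, 5 to 8 genes were higher in ischemic over control microglia, and 5 is the value without ischemic replicate 2 or 4 or control replicate 2, 3 or 4. The cause of these shifts was not tested. No paired analysis was possible because groups set against each other share at most the number 11 in their sample titles. Brain CD11c replicate 1 and spleen CD11c replicate 4 carry it and may come from 1 animal, while ischemic microglia replicate 1 carries it in another mouse line. Fold changes of Idi1 and Me1 rest on few counts.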

Other observations

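Genes next to the pathway, named here after their values were seen, differed between the same groups. Mlxipl, which encodes the carbohydrate-response element-binding protein, a transcription factor of fatty acid synthesis, averaged 81 CPM in brain CD11c cells, 0.111 CPM in spleen CD11c cells, 222 CPM in ischemic microglia and 391 CPM in control microglia. It was lower in brain CD11c cells than in ischemic microglia (log2 fold change -1.45 ± 0.19, SE, n = 4 each, edgeR adjusted p = 1.59e-05) and lower in ischemic than in control microglia (-0.82 ± 0.19, adjusted p = 0.00322). Acaca, Fasn and Acly were higher in that last comparison. Mid1ip1, whose product activates acetyl-CoA carboxylase, averaged 101 CPM in ischemic microglia and 156 CPM in control microglia (-0.62 ± 0.12, adjusted p = 0.000938).

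Of 8 liver X receptor and lipid-handling genes, 4 were higher in ischemic than in control microglia (Abca1, Abcg1, Soat1 and Ch25h). Lower were 2 (Nr1h2 and Mylip), against 17.7% higher and 18.0% lower over all genes tested. The cholesterol exporter gene Abca1 averaged 973 CPM in ischemic microglia and 496 CPM in control microglia (log2 fold change 0.97 ± 0.28, SE, n = 4 each, edgeR adjusted p = 0.013). Soat1, which esterifies cholesterol, averaged 190 CPM in ischemic microglia and 104 CPM in control microglia (0.87 ± 0.13, adjusted p = 8.29e-05). Ch25h, the cholesterol hydroxylase whose product holds SREBPs back, averaged 57.6 CPM in ischemic microglia and 2.22 CPM in control microglia (4.70 ± 0.41, adjusted p = 9.98e-07). Mylip, which encodes a ubiquitin ligase, averaged 387 CPM in ischemic microglia and 564 CPM in control microglia (-0.54 ± 0.14, adjusted p = 0.00576). In brain CD11c cells against ischemic microglia, 3 of the 8 were higher and 4 lower, with a median log2 fold change of -0.48 (19.7% higher and 19.1% lower over all genes tested). Abca1, Abcg1, Mylip and Lpcat3 were lower (-0.76, -0.53, -1.24 and -0.78), and Nr1h2 and Soat1 higher (0.43 and 0.71). The receptor gene Nr1h3 averaged 25.4 CPM in brain CD11c cells and 2.99 CPM in ischemic microglia (3.09 ± 0.38, adjusted p = 1.02e-05).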
